A study of Homo sapiens with 24 samples.

Results

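C/D box small nucleolar RNAs (snoRNAs) were examined as a family of 198 rows among the 175946 annotated features of a small RNA count table from HEK293, an established human embryonic kidney cell line. The rows are those whose first name begins with SNORD and whose type is not long non-coding RNA (lncRNA). The SNORD families that hold U3, U8 and U13, those of the GAS5 and SNHG1 genes, and the imprinted SNORD113 to SNORD116 clusters were left out, so that 198 of the 383 SNORD rows remained, with 191 distinct symbols. The cells are labelled wild type and carried an added gene for eGFP (green fluorescent protein, written GFP below and used as the control), lamin A (LMNA), lamin B1 (LMNB1) or lamin B2 (LMNB2), each overexpressed. Each of the 4 groups held 3 libraries of small RNA and 3 of ATAC-seq, 24 libraries in all. Lamins form the filament meshwork under the inner nuclear membrane. The construct, its promoter, the time after its introduction, and whether replicates were separate cultures are not given in the sources used here, so the p-values below measure the spread between libraries, which may be technical.

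A C/D box snoRNA pairs with a target RNA and positions the methyltransferase fibrillarin, with NOP56, NOP58 and SNU13, to add a methyl group to the ribose of a chosen nucleotide. Most targets lie in ribosomal RNA, and some in the spliceosomal U6 RNA. In human cells nearly all of these snoRNAs lie in introns of host genes transcribed by RNA polymerase II and are released from the excised intron by trimming. Many hosts encode ribosomal or nucleolar proteins, and others are non-coding genes known mainly for their snoRNAs. The study's title concerns RNA polymerase III, a different enzyme.

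By RefSeq (GRCh38.p14), 190 of the 198 rows lay inside a host gene, on its strand where that is listed. Ribosomal protein genes held 41 rows, lncRNA genes 31 and transcribed pseudogenes 5, and the rest lay in other protein-coding genes. No host was found for the other 8 rows, none of which had enough counts to be tested. The starts of 5 hosts of members described below are shown: RPL13A (SNORD35A and SNORD34), RPS12 (SNORD100 and SNORD101), RPL17 (the SNORD58 genes), SNHG29 (SNORD49A and SNORD49B) and RNF149 (SNORD89). RPL17 holds none of the members named below as passing a test. The hosts of SNORD136, SNORD88B and SNORD169, which are so named, are not shown. Each line gives the 50 bases before the annotated start and the 50 bases that begin with it, on the host's strand, from RefSeq GRCh38.p14. They lie at chr19:49487558-49487657 (+), chr6:132814519-132814618 (+), chr18:49492416-49492515 (-), chr17:16438937-16439036 (+) and chr2:101308652-101308751 (-). Capitals mark CTTTTC or CTTTC, a pyrimidine run of the kind found at the 5′ end of ribosomal protein transcripts. It was chosen after these sequences were seen and was marked anywhere in a line. In RPL17 it lies before the annotated start.
RPL13A: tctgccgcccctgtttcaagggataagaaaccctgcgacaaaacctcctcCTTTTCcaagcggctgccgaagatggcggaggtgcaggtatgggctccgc
RPS12: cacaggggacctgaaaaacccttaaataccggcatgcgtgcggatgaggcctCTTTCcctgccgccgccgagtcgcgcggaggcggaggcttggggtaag
RPL17: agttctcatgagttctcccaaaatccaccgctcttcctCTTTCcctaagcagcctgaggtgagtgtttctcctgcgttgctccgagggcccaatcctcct
SNHG29: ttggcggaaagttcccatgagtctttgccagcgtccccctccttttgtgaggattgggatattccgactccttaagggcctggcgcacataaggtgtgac
RNF149: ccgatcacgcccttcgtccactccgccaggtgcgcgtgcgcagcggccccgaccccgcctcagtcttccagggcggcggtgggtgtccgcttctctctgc

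The run occurs in the windows of the 3 ribosomal protein hosts and in neither SNHG29 nor RNF149. Among all hosts with a listed start, 9 of 11 ribosomal protein genes (81.8%), 6 of 15 lncRNA genes (40%) and 16 of 64 other protein-coding genes (25%) held it on the host's strand, beside 5260 of 35116 promoters of the same length (14.98%). The forms can overlap each other by their end base only. On the opposite strand, as GAAAAG or GAAAG, the shares were 0 of 11, 3 of 15 and 4 of 64 hosts and 14.3% of all promoters. The 9 ribosomal protein genes with the run include RPL13A, RPS12 and RPL17, whose sequences were seen before it was chosen. Their share is therefore no independent test of the run. A match describes these letters only.

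Small RNA totals ran from 132.5 to 195.1 M (M for 1e6) counts per library, of which the 198 rows took 2.66% to 3.24%. Of the 198 rows, 161 passed the count filter, and the other 37 had at most 5.83 counts per library on average, 9 of them none in any library. ATAC totals ran from 156.0 to 290.2 M counts over feature windows, and 139 of the 198 windows passed. Features at the lamin genes were compared with the labels. MIR7108, inside LMNB2, had 18.6 CPM (counts per 1e6, on library sizes scaled by the trimmed mean of M-values, TMM) in LMNB2 and 0.0123 in GFP, an interval of LMNB1-DT had 18.2 CPM in LMNB1 and 0.0812 in GFP, and the ATAC window on lnc-SEMA4A-1, near LMNA, had 4475 CPM in LMNA and 11.1 in GFP. In small RNA lnc-SEMA4A-1 had 0.0189 CPM in LMNA and 0.0236 in GFP, so no small RNA feature checked the LMNA label. As for the cell line, MIR10A and MIR92A1, known in HEK293, had group means of 41.8 to 104 and 19.2 to 33.2 CPM. MIR17, MIR18A, MIR19B1 and MIR20A, also known there, had lower group means, from 1.37 to 13.8 CPM. Each of 8 microRNAs defining liver, blood, muscle or neurons stayed at 0.0588 CPM or less in every library. They were MIR122, MIR142, MIR223, MIR451A, MIR1-1, MIR133A1, MIR206 and MIR124-1, and MIR451A had no count.

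One library stood apart for these snoRNAs. GFP replicate 1 was the highest of the 12 libraries for 79 of the 161 tested rows, and of 149 rows with at least 50 counts on average it was both the highest and at least 2 times the median library for 27. Its TMM factor was 0.631, the lowest, where the other libraries ran up to 1.31. As a plain share of its counts the family took 3.00% of GFP replicate 1, inside the range of the other libraries. The comparisons with GFP are therefore also given without that library.

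In GFP cells a few members held most of the family's counts. The mean level of tested rows ran from 0.0399 to 4777 CPM with a median of 16.7. SNORD58A alone held 14.6% of the family's summed CPM, the 3 highest rows 32.2% and the 10 highest 61.0%. A mean over 100 CPM was found for 38 rows, and 30 were under 1 CPM. Levels between members are compared below per kilobase of counted interval (CPM per kb), which for most members is the RefSeq gene with 25 bases added on each side.

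The highest member per kb was SNORD58A, a 28S rRNA guide in an intron of RPL17, with 7819, 3914 and 2597 CPM in the 3 GFP libraries, or 41537 CPM per kb. SNORD63, a 28S guide in HSPA9, had 28740 CPM per kb, and SNORD101, in RPS12, had 19334. They were followed by SNORD59B in ATP5F1B (16295), SNORD43 in RPL3 (14437), SNORD2 in EIF4A2 (13506) and SNORD18A in RPL4 (10539). Others of the 12 highest were SNORD58B and SNORD58C, also in RPL17, SNORD127 in PRPF39 and SNORD82 in NCL, the gene of nucleolin, at 7453 to 8732 CPM per kb. In CPM the GFP libraries of these members overlapped in places: SNORD63 had 4478, 3735 and 1960 CPM and SNORD59B 2817, 1787 and 1311. Of the 12 highest, 7 lay in ribosomal protein genes.

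**Figure D1:**
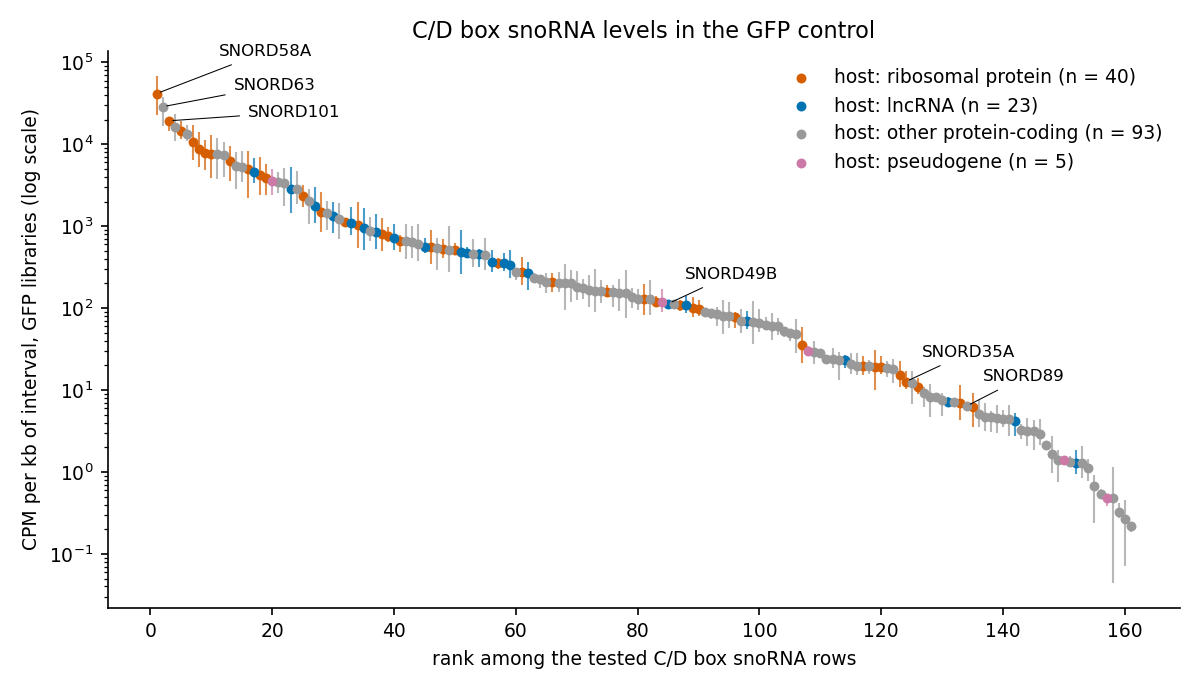
Level of each of the 161 tested C/D box rows in the GFP small RNA libraries, in CPM per kb of interval on a log axis, ranked; points are means, vertical lines run from the lowest to the highest of 3 libraries, and colours give the class of host gene. Levels run from 41537 CPM per kb for SNORD58A down to 0.218, and the members called in LMNB2 (SNORD49B, SNORD35A and SNORD89) lie below the median of 129 CPM per kb.

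By host, the median GFP level was 521 CPM per kb for the 40 tested rows in ribosomal protein genes and 454 for the 23 in lncRNA genes. It was 68.3 for the 93 in other protein-coding genes and 29.8 for the 5 in transcribed pseudogenes. By known target, it was 479 CPM per kb for the 50 tested 28S rRNA guides, 207 for the 37 tested 18S rRNA guides, 129 for the 3 of 5.8S rRNA (SNORD71, SNORD96A and SNORD96B) and 19.9 for the 5 guides of U6. The 8 tested members listed with no assigned rRNA or small nuclear RNA target had a median of 53.7. The 58 tested members outside these target lists had 26.6. Members numbered SNORD117 and above had a median of 4.4 CPM per kb (37 of 55 rows tested), against 205 for lower numbers (124 of 143 tested). The highest of the first of these groups were SNORD127 with 7648 CPM per kb and SNORD119 with 1455.

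Members of 1 host did not share a level. In 38 hosts with 2 or more tested rows, the highest row exceeded the lowest by a median of 5.79 times per kb, by over 10 times in 17 hosts and by over 100 times in 3. In RPL3, SNORD43 stood 934 times above SNORD83B, which has no assigned rRNA target. In HSPA9 the ratio of SNORD63 to SNORD63B was 144, and in C19orf48P, a transcribed pseudogene, that of SNORD88C to SNORD88B was 121. By contrast SNORD1A, SNORD1B and SNORD1C in SNHG16 lay within 1.40 times of each other, and SNORD14C and SNORD14E in HSPA8 within 1.06 times. Reads that fit more than 1 near-identical copy may be counted at each, which the sources used here do not state, so values of the SNORD14, SNORD88, SNORD91 and SNORD141 copies are uncertain for a single gene.

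**Figure D2:**
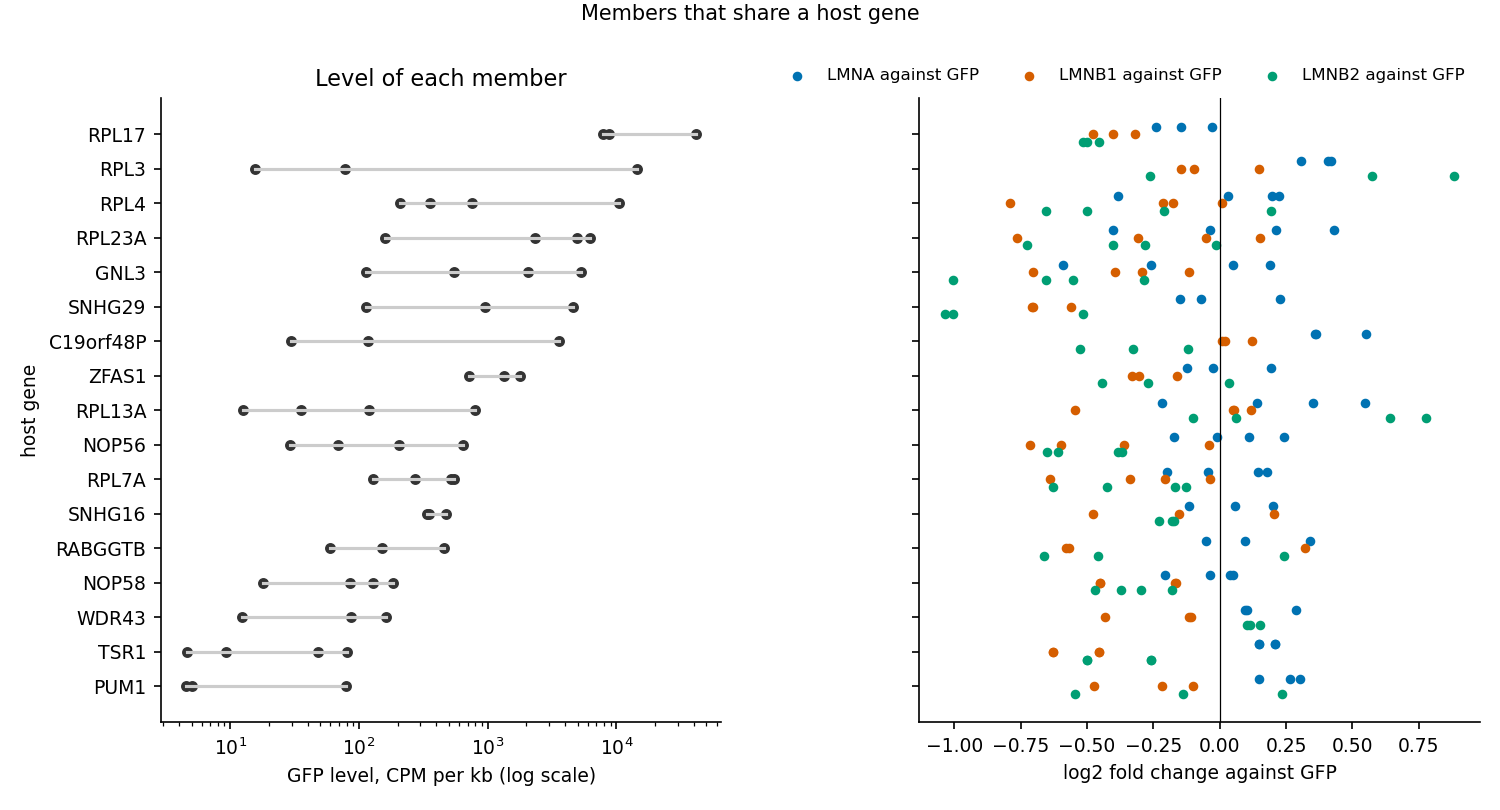
Host genes with at least 3 tested members, 17 drawn: left, the GFP level of each member in CPM per kb (log axis, grey lines join members of a host); right, the log2 fold change of the same members in LMNA, LMNB1 and LMNB2 against GFP. RPL3 spans 934 times on the left. On the right the RPL17 and SNHG29 members lie left of 0 in LMNB2, as do all members of several other hosts. Without GFP replicate 1 the RPL17 and SNHG29 medians were −0.0073 and −0.97.

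Members long used as reference RNAs in quantitative PCR were not equal across libraries. SNORD68, in RPL13, had 267, 72 and 80.1 CPM in GFP, 126, 164 and 162 with LMNA overexpressed, 84.8, 65.7 and 77.5 with LMNB1, and 76.6, 93.2 and 82.2 with LMNB2. SNORD61, in RBMX, had 585, 235 and 231 CPM in GFP and 184, 222 and 193 in LMNB2. For both, GFP replicate 1 was the highest library of all. SNORD72, in RPL37, had 16.2, 15.1 and 11.8 CPM in GFP and 10.7, 11.2 and 12.8 in LMNB2, and these groups overlapped. SNORD95 and SNORD96A, both in RACK1, had GFP means of 23.5 ± 6.54 and 15.8 ± 4.76 CPM (SD, n = 3), and SNORD48 in SNHG32 had 30.6 ± 11.7. None of the 6 was called in any lamin by the quasi-likelihood test of edgeR, adjusted over 33893 features by Benjamini-Hochberg, the test used throughout.

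Members of the imprinted chromosome 15 and 14 regions that lie outside the large clusters were at or near 0. SNORD107, SNORD64, SNORD108 and both SNORD109A rows in SNHG14, and SNORD112 in MEG8, had at most 3 counts per library on average, and SNORD108 and SNORD112 had none. SNORD109B was not among the rows. Of the 5 SNORD14 genes, which guide 18S rRNA, SNORD14D had too few counts to be tested, with 5.83 per library on average, and the others had GFP means of 0.966 to 2.77 CPM. SNORD50A and SNORD50B in SNHG5, both 28S guides, had GFP means of 358 ± 267 and 54.4 ± 14.5 CPM (SD, n = 3) and were not called in any lamin.

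In LMNA no member passed the test. Of 161 tested members 0 were called in LMNA, where 0% of all features were called, and 15 had an unadjusted p under 0.05, all higher (9.32%, beside 5.46% of all features). The median log2 fold change of members was 0.14 (49 lower), beside −0.05 for all tested features. The 3 LMNA libraries all lay above the GFP libraries for 14 members and below for 0 (8.70%, beside 9.50% of all features on either side). Among members at or above the family's median level, the lowest p belonged to SNORD100, an 18S guide in RPS12. It had 135, 135 and 154 CPM in GFP and 385, 249 and 242 in LMNA, so that the groups did not overlap. By edgeR it stood 1.05 ± 0.25 (SE) higher on the log2 scale with an adjusted p of 0.724, where DESeq2 gave 0.00653.

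Among members at or above the median level, those next by p in LMNA were SNORD96A (log2 fold change 0.71 ± 0.24), SNORD4A, SNORD95, SNORD10 and SNORD46 among the higher and SNORD19C, SNORD127, SNORD59A, SNORD82, SNORD18A and SNORD42A among the lower, with log2 fold changes of 0.43 to 0.74 and of −0.59 to −0.38. All had adjusted p-values of 0.882 or more (edgeR). Without GFP replicate 1 SNORD18A and SNORD42A turned to 0.16 and 0.16, and SNORD127, SNORD59A, SNORD82 and SNORD19C were at −0.0097, −0.03, −0.044 and −0.30.

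In LMNB1 again no member was called. The median log2 fold change was −0.18, with 40 of 161 members higher, beside −0.05 for all features, and it turned to 0.07 without GFP replicate 1 and 0.04 with total counts only. No member was called (0 of 161, where 0.0384% of all features were). An unadjusted p under 0.05 was found for 17 (10.6%, beside 5.51% of all features), 16 of them lower. Of these 17, 4 were the rows of SNORD91A and SNORD91B in TSR1, all lower. Each of these symbols is listed more than once with nearly the same counts, so the share counts the same reads repeatedly. The groups separated in 13 members (8.07%, beside 10.1% of all features). Lowest in p among members at or above the median level was SNORD41, a 28S guide in TNPO2, with 120, 32.9 and 33.4 CPM in GFP and 28.5, 26.8 and 33.3 in LMNB1. The groups overlapped, and its log2 fold change of −1.07 ± 0.39 (edgeR adjusted p of 0.857) came with GFP replicate 1 far above the other GFP libraries. SNORD57, SNORD18A, SNORD61, SNORD19C and SNORD87 followed, with log2 fold changes of −0.82 to −0.60. Without GFP replicate 1 SNORD41 was at −0.17, SNORD87 at −0.055, SNORD61 at −0.20, SNORD18A at −0.23, SNORD57 at −0.32 and SNORD19C at −0.40. On the higher side SNORD101, SNORD100, SNORD111B, SNORD1A, SNORD4B and SNORD38B had 0.14 to 0.38.

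In LMNB2, 3 members were called: SNORD89 and SNORD35A were higher and SNORD49B lower. This was 1.86% of the 161 tested, beside 2.66% of all features. By direction, 2 of 161 were called higher (1.91% of all features) and 1 of 161 lower (0.752% of all features). At an unadjusted p under 0.05 the family had 38 members (23.6%, beside 19.9% of all features), 12 higher and 26 lower. The groups separated in 34 members (21.1%, beside 22.3% of all features). All these shares were near the background, and the median log2 fold change was −0.19, with 53 members higher, beside −0.04 for all features.

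SNORD89 (chromosome 2 from 101272911 to 101273074) lies in RNF149, which encodes a ubiquitin ligase, and has no assigned rRNA target. It had 0.971, 1.04 and 1.13 CPM in the GFP libraries, 1.46, 1.19 and 1.20 in those of LMNA, 1.33, 1.23 and 1.15 in those of LMNB1 and 1.61, 1.76 and 1.85 in those of LMNB2. The LMNB2 libraries were the 3 highest of the 12. Its log2 fold change in LMNB2 was 0.73 ± 0.16 (SE, edgeR adjusted p of 0.0246).

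SNORD35A (chromosome 19 from 49491150 to 49491285) is a 28S guide in RPL13A. It had 1.43, 1.38 and 2.34 CPM in GFP and 2.81, 3.08 and 2.98 in LMNB2, with 1.69 to 1.97 in the LMNA and LMNB1 libraries. The LMNB2 libraries lay above all others, and the log2 fold change was 0.78 ± 0.20 (edgeR adjusted p of 0.0418). Of the other members of RPL13A, SNORD34 had 12.6, 12.5 and 16.5 CPM in GFP and 20.4, 23.4 and 21.0 in LMNB2, which do not overlap, a log2 fold change of 0.64 ± 0.20 (edgeR adjusted p of 0.0882). SNORD32A and SNORD33, in the same gene, had 0.06 ± 0.31 and −0.10 ± 0.29. Whether members of this host differ among themselves in response was not tested.

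SNORD49B (chromosome 17 from 16439484 to 16439581) is a 28S guide in the lncRNA gene SNHG29. It had 11.8, 10.2 and 11.2 CPM in the GFP libraries, 8.01, 7.64 and 16.0 in those of LMNA, 7.15, 8.05 and 7.37 in those of LMNB1 and 4.87, 6.10 and 5.59 in those of LMNB2. The LMNB2 libraries were the lowest of the 12 and LMNA replicate 3 the highest. The log2 fold change in LMNB2 was −1.01 ± 0.25 (edgeR adjusted p of 0.0419). Its neighbour SNORD49A had 407, 435 and 815 CPM in GFP, 266, 301 and 1371 in LMNA, and 258 to 370 in the LMNB1 and LMNB2 libraries. LMNA replicate 3 was again the highest, at 4.24 times the median library, which was the highest such ratio among the 149 members with at least 50 counts on average. SNORD65, the third member in SNHG29, did not share this: it had 105 CPM in LMNA replicate 3 and 109 and 106 in the other LMNA libraries. The LMNB2 log2 fold change of SNORD49A was −1.04 ± 0.54 (edgeR adjusted p of 0.311).

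The calls were lost together in several settings. When only the 6 libraries of GFP and LMNB2 entered the model, when total counts replaced TMM scaling, or when GFP replicate 2 or any LMNB2 library was left out, 0 members were called. Leaving out LMNA replicate 1 or any LMNB1 library gave 1 call. Of the 20 alternatives, SNORD89 was called in 14, SNORD49B in 9 and SNORD35A in 6. Without GFP replicate 3 there were 30 calls, without GFP replicate 1 there were 4, DESeq2 gave 8 and no count filter gave 10. The shares of all features called in these settings are not given here, so these counts cannot be read as particular to the family.

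**Figure D3:**
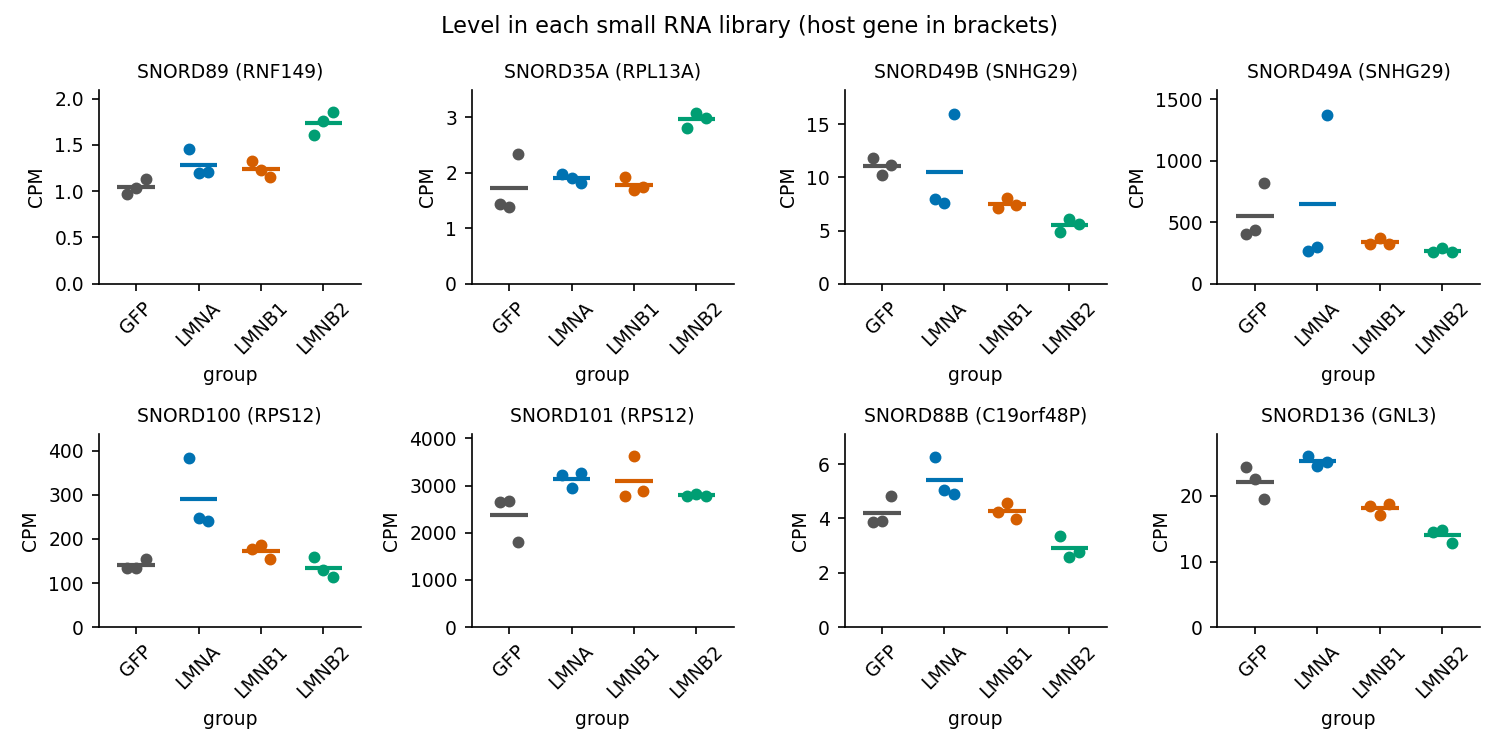
CPM (TMM-scaled) in each of the 12 small RNA libraries for 8 members, with the host gene in brackets; points are libraries and bars are means of 3, with axes from 0. LMNB2 lies above all other libraries for SNORD89 and SNORD35A, and LMNA replicate 3 stands far above the rest for SNORD49A.

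Below the threshold in LMNB2, SNORD19C and SNORD136, both in GNL3 (the gene of nucleostemin), had edgeR adjusted p-values of 0.072 and 0.0739, with DESeq2 giving 0.000187 for SNORD136. SNORD19C had 358, 286 and 133 CPM in GFP and a mean of 129 ± 10.6 (SD, n = 3) in LMNB2, and the libraries overlapped. The log2 fold change of SNORD136 was −0.66 ± 0.19. SNORD136 had 24.4, 22.5 and 19.6 CPM in GFP and 14.5, 14.9 and 12.8 in LMNB2, without overlap. SNORD57, SNORD61, SNORD45A and SNORD18B had −0.81 to −0.50, and SNORD66, SNORD15A, SNORD20, SNORD111B, SNORD95 and SNORD96A 0.33 to 0.46. Without GFP replicate 1 SNORD57 was at −0.34, SNORD61 at −0.23 and SNORD45A at −0.22. All 3 tested members of RPL17, the host with the highest snoRNA level, lay between −0.52 and −0.45, and all 3 of SNHG29 between −1.04 and −0.52. This was common: 108 of 161 members were lower. All tested members were also lower in GNL3, NOP56, NOP58, RPL23A, RPL7A, TSR1, SNHG16 and C19orf48P. Without GFP replicate 1 the median of the RPL17 members was −0.0073 and that of the SNHG29 members −0.97. None of these was called apart from SNORD49B.

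By class of host, the medians against GFP were close to each other among ribosomal protein, lncRNA and other protein-coding hosts. In LMNB2 they were −0.15 for ribosomal protein hosts (14 of 40 higher, 1 called), −0.27 for lncRNA hosts (5 of 23 higher, 1 called) and −0.18 for other protein-coding hosts (32 of 93 higher, 1 called), and without GFP replicate 1 they were 0.09, 0.10 and 0.17. In LMNA they were 0.14, 0.09 and 0.12 and in LMNB1 −0.14, −0.23 and −0.18, with 0 called in each. The 5 tested rows in transcribed pseudogenes had 0.36 in LMNA, 0.12 in LMNB1 (5 of 5 higher) and −0.12 in LMNB2, with 0 called. By target, the LMNB2 medians were −0.22 for 28S guides (13 of 50 higher, 2 called), −0.23 for 18S guides (9 of 37 higher, 0 called), 0.32 for U6 guides (4 of 5 higher, 0 called) and 0.38 for members with no assigned target (6 of 8 higher, 1 called). Without GFP replicate 1 these became 0.09, 0.06, 0.45 and 0.43, so that the signs of the 28S and 18S guides turned. The 5.8S guides had an LMNB2 median of 0.33 (2 of 3 higher, 0 called), and 0.45 without GFP replicate 1. Members outside these target lists had −0.24 (19 of 58 higher, 0 called), and 0.11 without GFP replicate 1. The lncRNA intervals of 10 snoRNA host genes such as SNHG29, SNHG5 and ZFAS1 had an LMNB2 median of −0.21 over their tested intervals, and 0.12 without GFP replicate 1. Of these intervals 2 were called (1.72%, beside 2.66% of all features), and many overlap each other and the snoRNAs.

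With GFP replicate 1 included, the family's medians did not part from GFP beyond the spread of libraries. The level of a library was taken as the median over the 161 members of log2 CPM relative to the GFP mean. It was 0.48, −0.21 and −0.28 in the GFP libraries, 0.13 to 0.21 in those of LMNA, −0.15 to −0.09 in those of LMNB1 and −0.17 to −0.11 in those of LMNB2. Every lamin library lay between the highest and the lowest GFP library. This overlap rests on GFP replicate 1 alone, as every lamin library lay above the other GFP libraries. Without GFP replicate 1 the median log2 fold changes became 0.39, 0.07 and 0.12 in LMNA, LMNB1 and LMNB2, so that the sign turned in LMNB1 and LMNB2. With total counts only they were 0.19, 0.04 and 0.13, where the median of all features moved to 0.11 in LMNB1 and 0.19 in LMNB2.

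H/ACA box snoRNAs, which guide pseudouridylation, had medians of 0.41, 0.03 and 0.26 over 131 tested rows (0, 0 and 15 called, the last 11.5% beside 2.66% of all features), and their GFP libraries spread less (−0.28 to 0.19). The C/D box rows of GAS5 and SNHG1, which were left out by rule, had LMNB2 medians of −0.65 (10 tested) and −0.49 (8 tested), and in both GFP replicate 1 was the highest library. Without it these medians were −0.07 and −0.07. Differences between these groups were not tested.

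**Figure D4:**
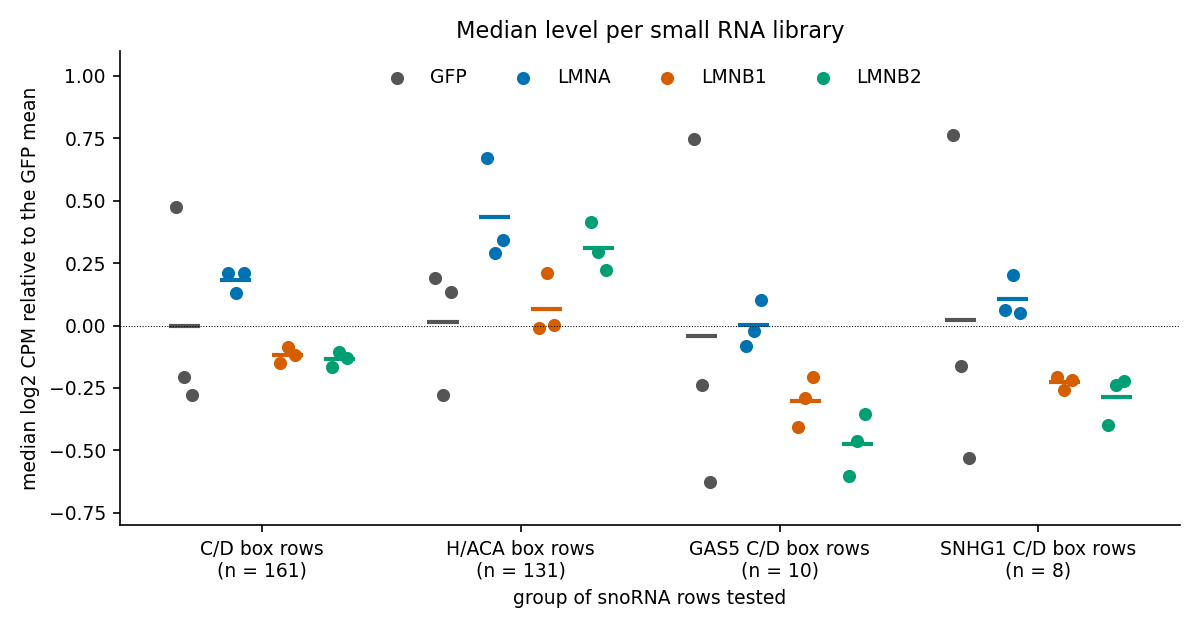
Median level of 4 groups of snoRNA rows in each small RNA library, as log2 CPM relative to the GFP mean; points are libraries and bars are means of 3. In the C/D box rows GFP replicate 1 lies at 0.48 and the other GFP libraries at −0.21 and −0.28, while the 3 LMNA libraries lie above those of LMNB1 and LMNB2.

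Among the lamins, LMNA libraries had higher levels than LMNB1 and LMNB2 libraries for most members. The median log2 fold change of LMNB1 against LMNA was −0.34, with 18 of 161 members higher, and that of LMNB2 against LMNA was −0.32, with 30 of 161 higher, while all features had medians of 0.01 and −0.01. LMNB2 against LMNB1 had 0.01, with 82 of 161 higher. With total counts only these medians were −0.20, −0.10 and 0.08, beside 0.15, 0.20 and 0.06 for all features. For LMNB1 and LMNB2 against LMNA, H/ACA box rows had medians of −0.36 and −0.19 and GAS5 rows −0.36 and −0.46. SNHG1 rows had −0.41 and −0.46, and the rows of U3, U8 and U13 had −0.16 and 0.47. Lower medians than in LMNA were therefore not particular to this family. Few single members passed. LMNB1 against LMNA had 0 calls (0.0118% of all features), LMNB2 against LMNB1 had 0 (2.19% of all features), and LMNB2 against LMNA had 4 (2.48% of members, beside 2.01% of all features).

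The 4 members called lower in LMNB2 than in LMNA were SNORD100, SNORD88B, SNORD136 and SNORD169. SNORD100 had 385, 249 and 242 CPM in the LMNA libraries, 177, 186 and 155 in those of LMNB1 and a mean of 134 ± 23.1 (SD, n = 3) in those of LMNB2, a log2 fold change of −1.12 ± 0.25 (SE, edgeR adjusted p of 0.0275). SNORD101, in the same host RPS12, had 3219, 2938 and 3256 CPM in LMNA and 2774, 2812 and 2782 in LMNB2. SNORD88B had 6.28, 5.03 and 4.89 CPM in LMNA and 3.36, 2.59 and 2.78 in LMNB2 (−0.89 ± 0.19, edgeR adjusted p of 0.0243). SNORD136 had 26.1, 24.5 and 25.2 CPM in LMNA, and its log2 fold change was −0.84 ± 0.19 (edgeR adjusted p of 0.0314). SNORD169, in an intron of SMOC1, had 9.78, 9.51 and 9.38 CPM in LMNA and 4.89, 5.90 and 5.10 in LMNB2 (−0.85 ± 0.20, edgeR adjusted p of 0.0339). In all 4 the LMNA libraries lay above those of LMNB2. In the joint test of the 3 lamins 2 of 161 members were called, SNORD100 (edgeR adjusted p of 0.042) and SNORD88B (0.0474), beside 1.93% of all features. Of 19 alternatives, SNORD100 was called in 8 and SNORD88B in 5, and with a replicate block neither was. No member was called against LMNA with total counts only. For LMNB2 against LMNA, leaving out LMNA replicate 1, LMNA replicate 2 or any LMNB2 library gave 0 calls. Leaving out LMNA replicate 3 or any LMNB1 library gave 1, and leaving out GFP replicate 1 or GFP replicate 3 gave 15 and 22. Shares of all features called in these settings are likewise not given.

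ATAC-seq reads out DNA open to a transposase, and the windows over these members extend 125 bases beyond the small RNA interval on each side. Few transposase cuts fell in most of them: the median over 139 tested windows was 25.7 counts per library, and means ran from 1.08 to 797 over all 198. High GFP levels were found over SNORD104 in SNHG25 (8.81 CPM per kb), SNORD167 in ACAP3 (7.37), SNORD147 in PLEKHA7 (4.79) and SNORD48 in SNHG32 (2.92); these were chosen after their values were seen. Windows near the start of the host had more counts. Over 143 members whose host start is listed, the median GFP level was 1.32 CPM per kb for the 12 within 1 kb, 0.172 for the 64 from 1 to 5 kb and 0.0736 for the 67 farther away. Across these 143 members, which share the same libraries and in part the same hosts, Spearman's rho between distance and ATAC level was −0.52, and across the 120 of them tested in small RNA the rho between distance and small RNA level was −0.50. Across the 90 of these 143 members tested in both assays the rho between the 2 levels was 0.20. These are descriptions across genes, which are not independent replicates.

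**Figure D5:**
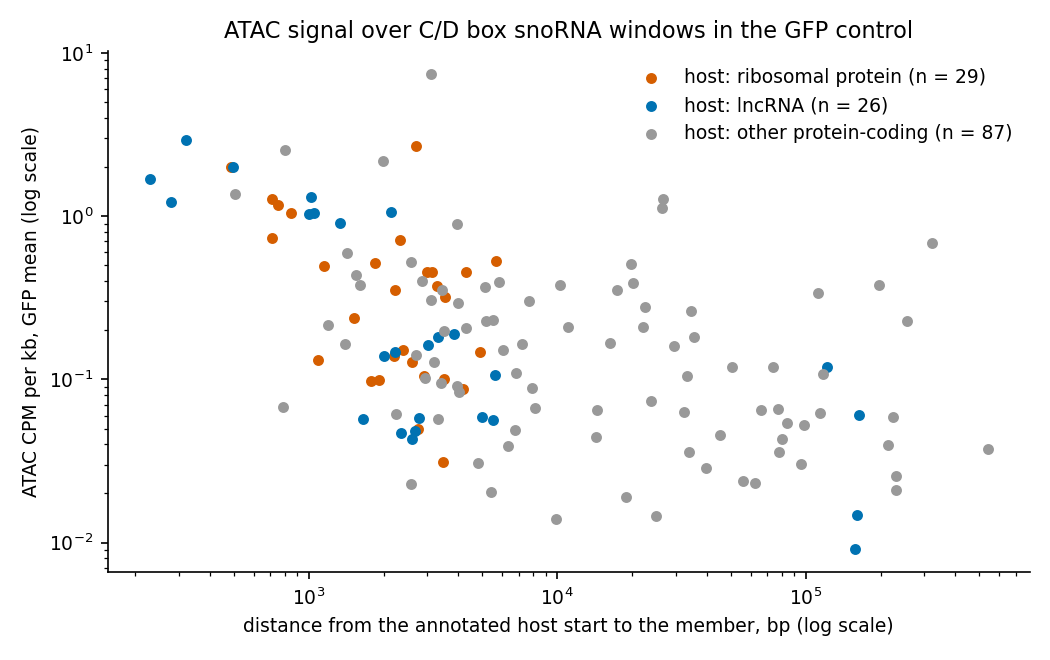
ATAC level over each member's window in the GFP libraries (mean CPM per kb, log axis) against the distance from the annotated start of the host gene (log axis), coloured by class of host. Each point is 1 of 142 members; the single window at 0 is not drawn, and the median falls from 1.32 CPM per kb within 1 kb of the start to 0.0736 beyond 5 kb.

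No ATAC window of a member passed the test between a lamin and GFP. Of 139 tested windows 0 were called in LMNA, 0 in LMNB1 and 0 in LMNB2 by edgeR's quasi-likelihood test, where 0.000611%, 0.00305% and 0.00244% of all windows were. At an unadjusted p under 0.05 there were 9, 10 and 9 (6.47%, 7.19% and 6.47%), beside 5.19%, 4.78% and 5.72% of all windows. DESeq2 called 0 in each lamin, giving most of these windows no adjusted p. Median log2 fold changes were −0.04, 0.08 and 0.00, beside −0.0013, −0.0017 and −0.0034 for all windows. With total counts only they were 0.06, 0.25 and 0.11, beside 0.09, 0.19 and 0.11 for all windows. The window with the lowest p, on SNORD45C in RABGGTB, had 2, 4 and 8 counts in GFP and 22, 26 and 25 in LMNB2, a log2 fold change of 1.49 ± 0.54 (edgeR adjusted p of 0.827). At this depth the difference did not pass a test over 163786 windows.

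Among other windows with the lowest p in a lamin were those on SNORD129, SNORD121B, SNORD173, SNORD156 and SNORD14C among the higher and SNORD45A, SNORD49A, SNORD48, SNORD36B, SNORD119 and SNORD91B among the lower, all with edgeR adjusted p-values of 0.86 or more. The windows over the members called in small RNA showed no call: those of SNORD89, SNORD35A and SNORD49B had log2 fold changes of −0.73 ± 0.66, −0.22 ± 0.34 and 0.11 ± 0.16 (SE) in LMNB2, with 10.6, 30.7 and 160 counts per library on average.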

How the data were processed

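The authors deposited 2 tables of counts per annotated feature, small RNA and ATAC-seq, on GRCh38 per the submitters' processing notes. RNA was enriched for small RNAs per the labels' protocols. The aligner, the counter, the use of strand and the treatment of reads with several matches are not given in the sources used here. Deposited counts were tested in R 4.3.3 with edgeR 4.0.16 (filterByExpr, TMM, robust quasi-likelihood test, prior count 2) over all 12 libraries of an assay, and p-values were adjusted by Benjamini-Hochberg over all tested features, with calls under 0.05. DESeq2 1.42.0 was an alternative. The fits were tested on simulated data with planted changes larger than those called here, which does not measure power for changes of this size. Members and lists were chosen with earlier results of these data known. Members were named by highest GFP level, lowest p in each direction and lamin, every call, and lists of reference snoRNAs, SNORD14, RPL13A, SNORD50 and imprinted members. Targets are textbook assignments. Small RNA totals were 132.5 to 195.1 M (M for 1e6) counts. Replicate libraries differed beyond counting noise (chi-square per degree of freedom of at least 74.6). Comparisons between lamins were added after the data were seen. One host gene, and values given with it, are not reported here.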

Additional observations from a re-analysis of the deposited data

How the results depend on the processing

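For small RNA, calls against GFP were 1 in LMNA and 8 in LMNB2 with DESeq2, and 3, 1 and 10 in LMNA, LMNB1 and LMNB2 with no count filter. LMNB2 had 0 with only the 6 libraries compared and 0 with total counts only. LMNB1 against LMNA had 9, LMNB2 against LMNA 16 and LMNB2 against LMNB1 1 with no count filter; LMNB2 against LMNA had 0 with total counts only, and LMNB2 against LMNB1 had 2 without lncRNA features. The joint test gave 1 with DESeq2 size factors, 7 with DESeq2, 1 with a mean of at least 10 counts, 21 with no count filter, 0 with total counts only and 1 without lncRNA features. With a replicate block it gave 0, and LMNB2 against GFP gave 2. Same-numbered libraries correlated at −0.04 to 0.23 in small RNA and −0.08 to 0.19 in ATAC. Correlations of differently numbered libraries are not given beside them, so these values cannot decide whether the numbers pair libraries. The main fit did not pair them. Median log2 fold changes with total counts only were −0.20 (LMNB1 against LMNA), −0.10 (LMNB2 against LMNA) and 0.0834 (LMNB2 against LMNB1), and without lncRNA features −0.23, −0.12 and 0.0922. In ATAC they were 0.0586, 0.25 and 0.11 in LMNA, LMNB1 and LMNB2 with total counts only, beside 0.09, 0.19 and 0.11 for all windows. Leaving out 1 library gave 0 to 4 calls in LMNA, 0 to 2 in LMNB1, 0 to 30 in LMNB2, 0 to 22 for LMNB2 against LMNA, 0 to 10 for LMNB2 against LMNB1 and 0 to 24 in the joint test. Medians then ran from 0.01 to 0.39, −0.28 to 0.07 and −0.31 to 0.12 in LMNA, LMNB1 and LMNB2, and in ATAC LMNA from −0.0659 to 0.0342. The cause was not tested, and the shares of all features called in these settings are not given. Of 1207 values of named members, 1119 kept their direction and side of the threshold, 69 lost a call, 16 gained one and 3 changed sign: in LMNA, SNORD18A (−0.57 to 0.16) and SNORD42A (−0.70 to 0.16) changed it without GFP replicate 1, and in LMNB1, SNORD38B (−0.0065 to 0.45) without GFP replicate 2, ranges being over single libraries left out. Only members called above could lose a call, so the 69 are not to be set against all 1207. Members called in LMNB2 against GFP were called again in 6 to 14 of 20 settings. Those called in LMNB2 against LMNA were called again in 7 to 11 of 18. The DESeq2 test and the fit of only 6 libraries were not run for comparisons between lamins, nor the latter for the joint test.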
